A study of Mus musculus with 5 samples.

Results

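The top step of a sorbitol dose series in mouse embryonic stem cells was examined, 300 mM against 250 mM. All barcodes with at least 500 genes detected were taken from the 300 mM library (9849 of 10000) and from the 250 mM library (10000 of 10000), which makes 19849 of the 49074 such barcodes in the series. Both groups are the REX-1 RFP line, which carries a red fluorescent protein under the promoter of Rex1, the naive pluripotency gene now named Zfp42. After about 18 h in medium with leukaemia inhibitory factor (LIF), up to about 24% confluence, the cells spent 72 h with LIF and sorbitol. The only difference the labels give between them is the dose. The series also holds a 200 mM library with LIF, a library labelled NS with LIF and a library labelled ND without LIF. The labels do not spell out NS and ND, and the fluorescent reporter itself was not analysed here. Each condition is 1 library of 1 cell line, so no p-values are given, the ratios compare libraries, and dose and batch cannot be told apart.

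Sorbitol is a sugar alcohol that cells take up poorly, and in the medium it draws water out of them. Mammalian cells respond to lasting hyperosmotic stress through the transcription factor NFAT5, which raises transporters and enzymes for organic osmolytes such as taurine, myo-inositol, betaine and sorbitol, and through ion transporters and the kinases that control them. Mouse embryonic stem cells kept with LIF express a naive pluripotency network around Oct4, Sox2, Nanog, Esrrb and Zfp42, and stress can shift them towards differentiation.

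Total depth was similar in both libraries, but the depth per barcode overlapped only in part. The kept barcodes held 8292073 UMIs (unique molecular identifiers) at 300 mM and 9766705 at 250 mM, with a median of 801 UMIs and 562 genes per barcode at 300 mM and of 939 UMIs and 625 genes at 250 mM. The lowest kept barcode at 250 mM held 827 UMIs, above the 300 mM median. Only 3893 barcodes at 300 mM fell in the UMI range both libraries share. Mitochondrial transcripts took 6.13% of UMIs at 300 mM and 5.78% at 250 mM, and ribosomal protein genes took 21.2% at 300 mM and 22.5% at 250 mM. The libraries shared 41 barcode sequences (0.41% of those at 250 mM), within the range of 34 to 52 over all pairs of the series. The stem cell label held against its markers: Pou5f1, Sox2, Nanog, Zfp42, Esrrb, Sall4, Utf1 and Dppa5a summed to 7775 CPM (UMI counts scaled to the total of the library) at 300 mM and 8522 CPM at 250 mM. Dppa5a alone made up most of these sums, with 5397 CPM at 300 mM and 6237 CPM at 250 mM. At 300 mM the markers of other cell types summed to 23.3 CPM (6 of primitive endoderm), 168 CPM (7 of trophoblast), 55.7 CPM (5 of neuroectoderm), 1.45 CPM (5 of mesoderm), 7.60 CPM (6 of fibroblasts) and 0.482 CPM (4 of blood). At 250 mM the same sums were 17.8, 173, 41.9, 1.54, 5.53 and 0.102 CPM. Col3a1, Postn and Dcn, of the fibroblast markers, were at 0 in both.

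Most genes stood at nearly the same level at both doses. Of 8512 genes with a mean of at least 10 CPM, 209 were at least 1.5-fold higher at 300 mM (2.46%) and 93 at least 1.5-fold lower (1.09%). The other 96.5% lay within 1.5-fold and 76.9% within 1.25-fold. The median log2 ratio was 0.05, with an interquartile range of -0.12 to 0.23. The 95% counting interval of the ratio left out 0 for 3565 genes (41.9%); it covers counting error only, and the spread between cultures at 1 dose is not known. Few differences were large, with 4 genes at least 2-fold higher at 300 mM and 13 at least 2-fold lower. The 4 are Alyref and Hccs, described below, and, named after their values were seen, the unnamed gene model Gm26754 (18.2 CPM at 300 mM and 8.29 CPM at 250 mM) and Med18, a subunit of the Mediator complex of transcription (41.5 CPM at 300 mM and 19.6 CPM at 250 mM). The split between higher and lower genes moved with the scaling. Scaled to the library total, 69.2% of the called genes were higher at 300 mM (209 against 93), and with median-of-ratios scaling, which shifted every log2 ratio by -0.04, 53.6% were (158 against 137). Genes within that shift of 0 change side with the scaling: of all 8512 genes 58.9% had a ratio above 0 and 41.1% below, and 51.9% were above 0 with median-of-ratios scaling. Counts of list members above or below 0 are to be read against these shares. Counts of called members are to be read against the 2.46% higher and 1.09% lower of all genes. Of 55 named genes called at 1.5-fold, 41 were also past it under all 7 other scalings and choices of barcodes. The exceptions are Anxa5, Bst2, Ccne2, Cebpb, Dusp1, Gapdh, Impact, Phlda2, Pmaip1, Psat1, Psmb5, Sall4, Spp1 and Spred1. Of the 7, leaving out barcodes over 20% mitochondrial UMIs removed none, so that setting repeats the main values wherever it is counted.

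**Figure D1:**
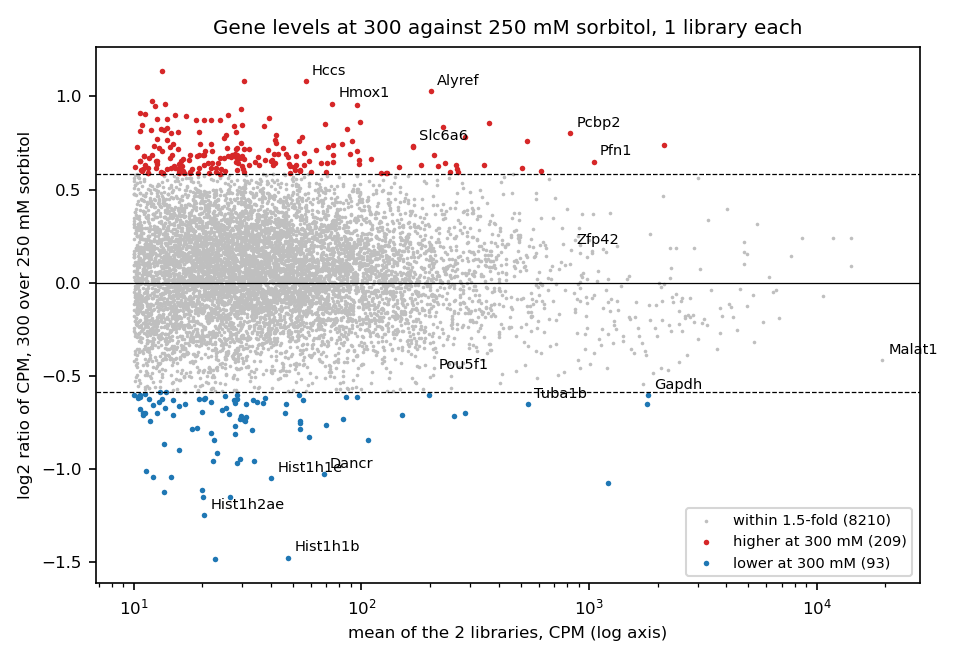
Each point is 1 of the 8512 genes with a mean of at least 10 CPM; the horizontal axis is the mean level of both libraries in CPM on a log axis and the vertical axis the log2 ratio of 300 over 250 mM. Dashed lines mark 1.5-fold; red points are the 209 higher genes, blue points the 93 lower ones, and most of the cloud lies between the lines.

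The doses below give a scale for this step. From 200 to 250 mM, 211 of 8493 genes were at least 1.5-fold higher at 250 mM (2.48%) and 134 lower (1.58%), and 24 passed 2-fold in either direction. Between 300 and 200 mM, 342 of 8532 genes were higher at 300 mM (4.01%) and 170 lower (1.99%), and 77 passed 2-fold. These comparisons share libraries, so their genes were not matched against each other, and the NS and 200 mM levels of single genes are given below beside the ratio.

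The 12 highest ratios among genes with a mean of at least 50 CPM ranged from 0.78 to 1.08 on the log2 scale. They included genes for RNA export, binding and splicing (Alyref, Pcbp1, Pcbp2, Rbfox2, Zfp36l1 and Tsen34) and for heme (Hccs and Hmox1). Hccs (ENSMUSG00000031352, chromosome X, 169250193 to 169320372), whose enzyme attaches heme to cytochrome c, stood highest, at 77.3 CPM (71.4 to 83.5) at 300 mM and 36.6 CPM (32.9 to 40.5) at 250 mM (log2 1.08, 0.89 to 1.27). Alyref (ENSMUSG00000025134, chromosome 11, 120592121 to 120598365), an adaptor that couples mRNA to nuclear export, was at 271 CPM (259.9 to 282) at 300 mM and 133 CPM (126 to 140.2) at 250 mM (log2 1.03, 0.93 to 1.13). Both were about 2-fold higher at 300 mM, with intervals wholly above 1.5-fold. NS held 119 CPM of Alyref and the 200 mM library 209 CPM, so its level did not follow the dose order, with 250 mM below 200 mM. Pcbp1 and Pcbp2, paralogs that bind poly(C) stretches in RNA, were both called. Pcbp1 (ENSMUSG00000051695, chromosome 6, 86524492 to 86526321) was at 470.3 CPM (456 to 485) at 300 mM and 259 CPM (249 to 269.8) at 250 mM (log2 0.86, 0.79 to 0.93). Pcbp2 (ENSMUSG00000056851, chromosome 15, 102470539 to 102500061), a splicing and translation regulator, was at 1052 CPM (1030.1 to 1074) at 300 mM and 603 CPM (588 to 619) at 250 mM (log2 0.80, 0.75 to 0.85), with 383 CPM in NS and 858 CPM at 200 mM. Rbfox2, a splicing factor, had 69.5 CPM at 300 mM and 40.4 CPM at 250 mM (log2 0.78, 0.59 to 0.97). Zfp36l1, which promotes decay of mRNAs with AU-rich elements, was 127 CPM at 300 mM and 69.8 CPM at 250 mM (log2 0.87, 0.73 to 1.01). It differed from the genes above in its order over the series, with 29.4 CPM in NS and then 62.3, 69.8 and 127 CPM at 200, 250 and 300 mM. Tsen34, a subunit of the tRNA splicing endonuclease, was at 111 CPM at 300 mM and 62.5 CPM at 250 mM (log2 0.83, 0.68 to 0.98).

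Other genes of the 12 have other functions. Cse1l, which returns importin alpha to the cytoplasm, had 292 CPM at 300 mM and 164 CPM at 250 mM (log2 0.84, 0.74 to 0.93), with 104 CPM in NS and 256 CPM at 200 mM. Rnf44, a RING finger protein, had 126 CPM at 300 mM and 65.02 CPM at 250 mM (log2 0.96, 0.81 to 1.101). Wsb1, a SOCS box substrate receptor of a ubiquitin ligase, had 89.00 CPM at 300 mM and 49.4 CPM at 250 mM (log2 0.85, 0.68 to 1.02). Hmox1 (ENSMUSG00000005413, chromosome 8, 75093621 to 75100589), heme oxygenase 1, which breaks heme down and is induced by oxidative stress, was at 98.5 CPM (91.9 to 106) at 300 mM and 50.6 CPM (46.2 to 55.2) at 250 mM (log2 0.96, 0.80 to 1.13). Its levels in NS and at 200, 250 and 300 mM were 91.2, 73.2, 50.6 and 98.5 CPM, a minimum at 250 mM.

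**Figure D2:**
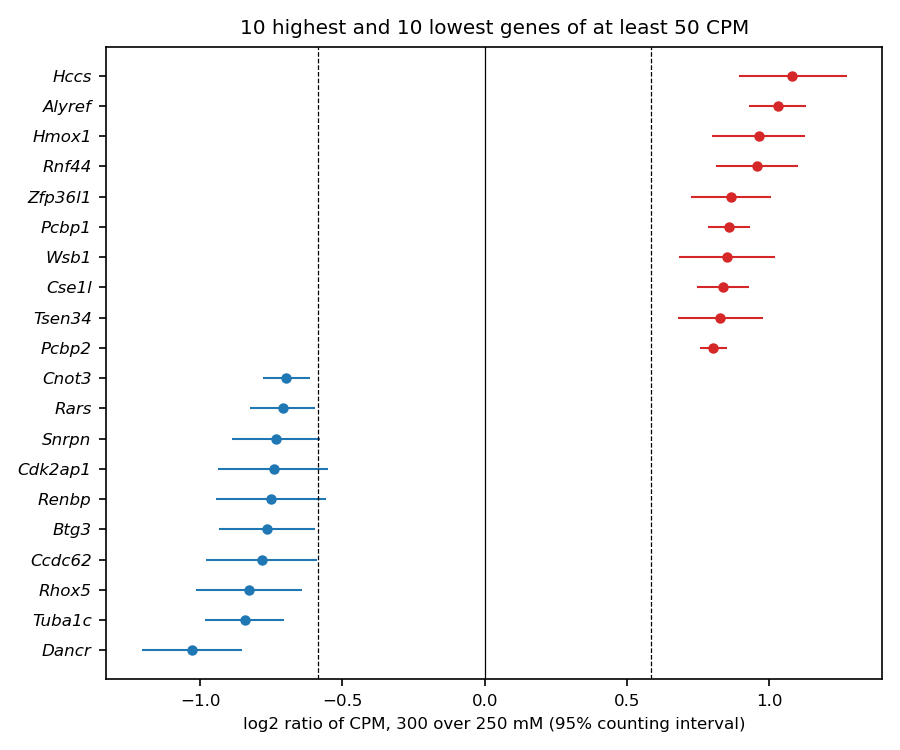
The 10 highest and 10 lowest genes with a mean of at least 50 CPM; the horizontal axis is the log2 ratio of CPM, 300 over 250 mM, points are ratios and bars their 95% counting intervals. Dashed lines mark 1.5-fold; Hccs stands at the top with 1.08 and Dancr at the bottom with -1.03.

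The 12 lowest ratios ran from -1.03 to -0.63 on the log2 scale and included a non-coding RNA and a pair of alpha-tubulin genes. Dancr (ENSMUSG00000106943, chromosome 5, 74093060 to 74095406), a long non-coding RNA that hosts small RNAs and is known in human cells for holding back differentiation, was at 44.9 CPM (40.4 to 49.7) at 300 mM and 91.4 CPM (85.5 to 97.6) at 250 mM (log2 -1.03, -1.21 to -0.85). Its level alternated over the series, with 81.1 CPM in NS and 47.3, 91.4 and 44.9 CPM at 200, 250 and 300 mM, so that 250 mM stood near NS while 200 and 300 mM stood near each other. The alpha-tubulin genes Tuba1c and Tuba1b, which encode nearly identical subunits of microtubules, were both lower at 300 mM. Tuba1c (ENSMUSG00000043091, chromosome 15, 99029891 to 99038110) was at 76.1 CPM (70.3 to 82.3) at 300 mM and 137 CPM (129 to 144) at 250 mM (log2 -0.84, -0.98 to -0.71), and Tuba1b (ENSMUSG00000023004, chromosome 15, 98931425 to 98934565) at 419.9 CPM (406 to 434) at 300 mM and 659 CPM (643 to 675) at 250 mM (log2 -0.65, -0.71 to -0.59). At 200 mM they held 87.8 and 430.3 CPM, close to 300 mM. The near identity of the pair leaves the share of each uncertain. Other tubulin genes were looked up after these values were seen. Tuba1a had 159 CPM at 300 mM and 175 CPM at 250 mM, Tubb5 had 1073 CPM at 300 mM and 915 CPM at 250 mM, and neither was called. Tubb3, the neuronal beta-tubulin, was called higher, with 48.5 CPM at 300 mM and 29.6 CPM at 250 mM (log2 0.71, 0.49 to 0.94).

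Rars, the arginyl-tRNA synthetase, was at 114 CPM at 300 mM and 187 CPM at 250 mM (log2 -0.71, -0.82 to -0.59). Cnot3, a subunit of the CCR4-NOT deadenylase, was at 216 CPM at 300 mM and 351 CPM at 250 mM (log2 -0.70, -0.78 to -0.61), with 317 CPM in NS and 217 CPM at 200 mM. Snrpn, an imprinted gene for a small nuclear ribonucleoprotein, had 62.2 CPM at 300 mM and 103 CPM at 250 mM (log2 -0.73, -0.89 to -0.58), and 62.8 CPM at 200 mM. For Cnot3 and Snrpn the 300 and 200 mM libraries were alike within their counting intervals, and among the sorbitol doses 250 mM stood apart. The 250 mM level of Cnot3 was nearer to NS than to the other doses. Rhox5, an X-linked homeobox gene, had 42.5 CPM at 300 mM and 75.4 CPM at 250 mM (log2 -0.83, -1.02 to -0.64). Btg3, of the antiproliferative BTG family, had 51.6 CPM at 300 mM and 87.6 CPM at 250 mM (log2 -0.76, -0.93 to -0.59). Ccdc62, Renbp and Cdk2ap1 had log2 ratios of -0.78, -0.75 and -0.74. Ptcra, which encodes the pre-T-cell receptor alpha chain, alone among these 12 was lower at each higher dose, with 145 CPM in NS and 104, 67.3 and 43.5 CPM at 200, 250 and 300 mM (log2 -0.63, -0.82 to -0.44 for 300 over 250 mM).

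**Figure D3:**
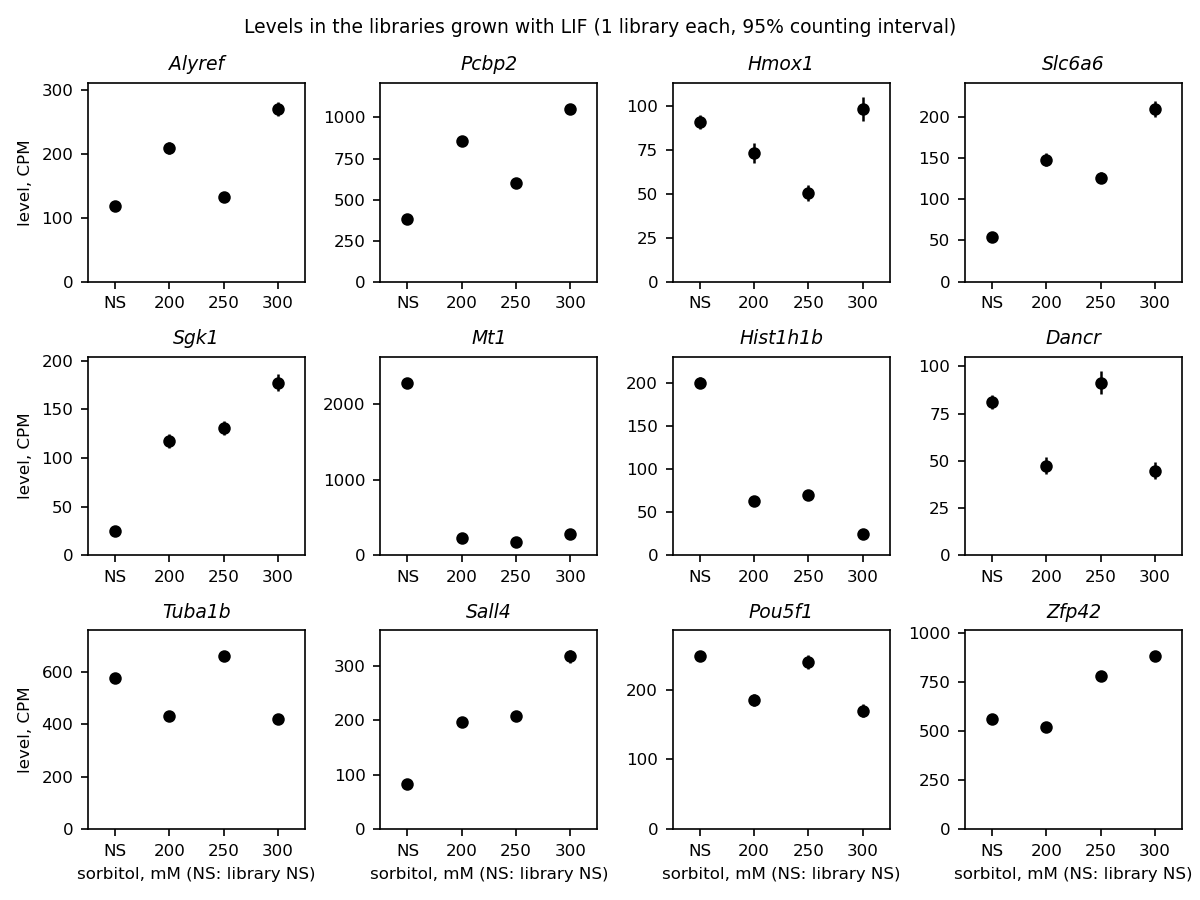
Levels of 12 genes in CPM (vertical axes, from 0) in the NS library and at 200, 250 and 300 mM sorbitol (horizontal axes, ordered and not to scale); points are 1 library each and bars 95% counting intervals. Alyref, Pcbp2, Dancr, Tuba1b and Pou5f1 alternate between doses, Sgk1, Sall4 and Zfp42 are highest at 300 mM, and Mt1 and Hist1h1b are highest in NS.

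Of the hyperosmotic response list, the taurine transporter was the only member called at this step. Slc6a6 (ENSMUSG00000030096, chromosome 6, 91684053 to 91759066), which imports taurine, was at 209 CPM (199.6 to 219) at 300 mM and 126 CPM (119 to 133) at 250 mM (log2 0.73, 0.63 to 0.84); NS held 54.2 CPM and the 200 mM library 148 CPM. In all, 1 of 11 measured members was higher and 0 were lower, against 2.46% and 1.09% of all genes, and the list's median log2 ratio was 0.12, against 0.05 over all genes. Sgk1 (ENSMUSG00000019970, chromosome 10, 21882184 to 21999903), the serum- and glucocorticoid-regulated kinase that acts on ion transport, was at 177 CPM (168 to 187) at 300 mM and 131 CPM (124 to 138) at 250 mM (log2 0.44, 0.33 to 0.55), short of 1.5-fold. Over NS and 200, 250 and 300 mM it stood at 25.3, 117, 131 and 177 CPM. Nfat5, the transcription factor of this response, had 92.4 CPM at 300 mM and 74.4 CPM at 250 mM (log2 0.31, 0.16 to 0.46). Slc5a3, the myo-inositol transporter, had 27.01 CPM at 300 mM and 31.2 CPM at 250 mM, with an interval that spans 0 (log2 -0.21, -0.46 to 0.04). Slc6a12, the betaine transporter, was below the 10 CPM minimum, at 6.75 CPM at 300 mM and 7.17 CPM at 250 mM (log2 -0.09, -0.62 to 0.44). Both of these were far above NS, where Slc5a3 had 5.78 CPM and Slc6a12 0.271 CPM, and neither differed between 300 and 250 mM beyond counting error. Akr1b3, the aldose reductase that makes sorbitol from glucose, had 302 CPM at 300 mM and 289 CPM at 250 mM (log2 0.07, -0.01 to 0.14). Slc38a2, the amino acid transporter SNAT2, had 593 CPM at 300 mM and 751 CPM at 250 mM (log2 -0.34, -0.39 to -0.29), and 452 CPM at 200 mM, so 250 mM was its highest dose. Ranbp3l had too few UMIs for a level.

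The list of ion pumps and channels had 0 of 13 measured members called and a median of 0.04, which was -0.00 with median-of-ratios scaling. Fxyd2, the gamma subunit of the sodium pump, had 141 CPM at 300 mM and 204 CPM at 250 mM (log2 -0.53, -0.64 to -0.43), and 28.8 CPM in NS. Lrrc8a, the volume-regulated anion channel subunit, had 24.7 CPM at 300 mM and 18.4 CPM at 250 mM (log2 0.42, 0.13 to 0.72).

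The lowest ratios of all listed genes were those of the histone genes Hist1h1b, Hist1h2ae and Hist1h1e. Of 16 measured histone genes 5 were lower at 300 mM and 0 higher, against 1.09% and 2.46% of all genes. Of the 5, 4 encode H1 linker histones, which bind the DNA between nucleosomes. Hist1h1b (ENSMUSG00000058773, chromosome 13, 21779883 to 21780625) was at 25.2 CPM (21.9 to 28.9) at 300 mM and 70.1 CPM (64.98 to 75.6) at 250 mM (log2 -1.48, -1.71 to -1.25), 2.78-fold lower at 300 mM. Its levels in NS and at 200, 250 and 300 mM were 200.1, 63.03, 70.1 and 25.2 CPM, with 200 and 250 mM close together and 300 mM apart from both. Hist1h1e (ENSMUSG00000051627, chromosome 13, 23620629 to 23622558) was at 26.2 CPM (22.8 to 29.9) at 300 mM and 54.2 CPM (49.6 to 58.98) at 250 mM (log2 -1.05, -1.28 to -0.82), and Hist1h1d (ENSMUSG00000052565, chromosome 13, 23553262 to 23560686) at 15.9 CPM (13.3 to 18.9) at 300 mM and 27.8 CPM (24.6 to 31.4) at 250 mM (log2 -0.81, -1.12 to -0.50). H1f0, the linker histone of resting and differentiated cells, whose gene lies outside the histone clusters, had 23.03 CPM at 300 mM and 38.5 CPM at 250 mM (log2 -0.74, -1 to -0.49), but 57.5 CPM at 200 mM and 24.2 CPM in NS. The fifth lower gene was Hist1h2ae, an H2A gene, with 12.1 CPM at 300 mM and 28.7 CPM at 250 mM (log2 -1.25, -1.59 to -0.91). The other linker histone gene measured, Hist1h1c, had 93.3 CPM at 300 mM and 75.97 CPM at 250 mM (log2 0.30, 0.15 to 0.44), and Hist1h2ap 488 CPM at 300 mM and 351 CPM at 250 mM (log2 0.48, 0.41 to 0.54). Most mRNAs of the clustered histone genes end in a stem-loop rather than a poly(A) tail, and several are near-identical copies, so their counts are uncertain. Of the 16 genes 11 had ratios below 0, against 41.1% of all genes, and the intervals of 9 lay wholly below 0 and those of 3 wholly above. The list's median was -0.10 and stayed below 0 in all 10 other settings that gave it, while its members, weighted by their level, summed to 4068 CPM at 300 mM and 4004 CPM at 250 mM.

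The promoters of the 4 clustered linker histone genes, 3 of them lower at 300 mM and Hist1h1c not, are shown to set them side by side; they are the 150 bases before the start in RefSeq on GRCm38.p6 (chromosome 13), 5′ to 3′ on the gene's strand. Capitals mark the letters AAACACA, the H1 box of linker histone promoters, and CCAAT, each searched on both strands; no match overlaps another.
Hist1h1b: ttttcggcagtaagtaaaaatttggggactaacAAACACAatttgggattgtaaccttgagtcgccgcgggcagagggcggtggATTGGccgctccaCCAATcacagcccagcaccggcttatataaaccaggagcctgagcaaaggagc
Hist1h1d: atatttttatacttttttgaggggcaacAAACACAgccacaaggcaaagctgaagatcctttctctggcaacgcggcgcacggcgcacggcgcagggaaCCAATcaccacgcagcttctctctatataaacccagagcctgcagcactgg
Hist1h1e: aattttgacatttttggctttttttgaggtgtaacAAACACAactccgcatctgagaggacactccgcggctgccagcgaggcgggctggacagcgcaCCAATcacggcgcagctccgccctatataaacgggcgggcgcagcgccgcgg
Hist1h1c: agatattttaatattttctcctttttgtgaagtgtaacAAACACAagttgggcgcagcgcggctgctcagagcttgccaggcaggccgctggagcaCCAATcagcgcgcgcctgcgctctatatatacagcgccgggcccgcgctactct
These are chr13:21780626-21780775 (minus strand), chr13:23554882-23555031 (plus strand), chr13:23622559-23622708 (minus strand) and chr13:23738657-23738806 (plus strand). Each holds 1 H1 box, which begins 117, 122, 115 and 112 bases before the start in Hist1h1b, Hist1h1d, Hist1h1e and Hist1h1c. A CCAAT follows it 53, 51, 52 and 54 bases before the start in the same order, and Hist1h1b has another on the opposite strand. Of 32851 mouse promoters of the same length, 3.53% hold the H1 box letters and 24.5% hold CCAAT. The layout thus did not separate Hist1h1c from the 3 lower genes. Neither string was in the same window of H1f0. The Hist1h1d window lies inside the gene coordinates given above, so RefSeq and those coordinates place its start differently.

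In the metallothionein and zinc list 1 of 8 measured members was higher and 0 lower, against 2.46% and 1.09% of all genes (median 0.24). Mt1 (ENSMUSG00000031765, chromosome 8, 94179082 to 94180327), which encodes a small cysteine-rich protein that binds zinc and copper, was at 285 CPM (274 to 297) at 300 mM and 182 CPM (174 to 191) at 250 mM (log2 0.64, 0.56 to 0.73). Mt2 (ENSMUSG00000031762, chromosome 8, 94172664 to 94173568), its neighbour, was at 169.8 CPM (161 to 179) at 300 mM and 126 CPM (119 to 133) at 250 mM (log2 0.43, 0.32 to 0.55). Both were far below NS at every sorbitol dose, with 2287 CPM of Mt1 and 994 CPM of Mt2 in NS and 231 and 115 CPM at 200 mM, so the 300 mM difference is small on the scale of the series. The zinc importers Slc39a14 (30.9 CPM at 300 mM and 20.9 CPM at 250 mM) and Slc39a6 (35.9 CPM at 300 mM and 26.4 CPM at 250 mM) had log2 ratios of 0.56 and 0.44. Metallothionein promoters are known for metal response elements, bound by the zinc-sensing factor MTF1; in the 150 bases before each start the letters TGCACNC or TGCGCNC, on either strand, are in capitals (RefSeq, GRCm38.p6).
Mt1: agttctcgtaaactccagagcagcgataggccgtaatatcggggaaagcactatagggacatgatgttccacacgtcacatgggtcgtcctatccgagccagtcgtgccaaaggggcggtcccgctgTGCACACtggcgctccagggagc
Mt2: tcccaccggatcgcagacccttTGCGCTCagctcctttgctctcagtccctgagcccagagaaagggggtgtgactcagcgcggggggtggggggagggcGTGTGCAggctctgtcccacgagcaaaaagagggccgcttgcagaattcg
These windows are chr8:94178939-94179088 (plus strand) and chr8:94172468-94172617 (plus strand). Mt1 holds 1 match, beginning 23 bases before the RefSeq start, and Mt2 holds 2, at 128 and 50 bases, the nearer one on the opposite strand. These starts differ from those of the gene coordinates above: the Mt1 window runs past 94179082, and the Mt2 window ends before 94172664. Bases after the RefSeq start were not searched, so the number of elements in each promoter is not settled by these windows. Such letters stand in 14.7% of all promoters of this length.

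In the iron and heme list 2 of 9 members were higher and 0 lower, against 2.46% and 1.09% of all genes (median 0.08). The 2 were Hmox1 and Pcbp1, which is also an iron chaperone. Ftl1, the ferritin light chain that stores iron, had 164 CPM at 300 mM and 124 CPM at 250 mM (log2 0.40, 0.29 to 0.52), and 476 CPM in NS; near-identical copies make its count uncertain. Tfrc, the transferrin receptor, had 295 CPM at 300 mM and 263 CPM at 250 mM (log2 0.17, 0.09 to 0.25).

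The general pluripotency factors did not stand on 1 side: Zfp42 was slightly higher at 300 mM, Sox2 level, and Nanog and Pou5f1 lower by less than 1.5-fold. Zfp42 (ENSMUSG00000051176, chromosome 8, 43295063 to 43306980), the gene whose promoter drives the reporter, was at 879 CPM (859 to 899.7) at 300 mM and 778 CPM (761 to 796) at 250 mM (log2 0.18, 0.13 to 0.22), a gap beyond counting error but far from 1.5-fold. Sox2 (ENSMUSG00000074637, chromosome 3, 34650405 to 34652461) was level, at 682 CPM (665 to 700.2) at 300 mM and 674 CPM (658 to 690.4) at 250 mM (log2 0.02, -0.03 to 0.07). Nanog (ENSMUSG00000012396, chromosome 6, 122707489 to 122714633) was at 133 CPM (125 to 141) at 300 mM and 169 CPM (161 to 177) at 250 mM (log2 -0.34, -0.45 to -0.23), and Pou5f1 (ENSMUSG00000024406, chromosome 17, 35506018 to 35510772), which encodes Oct4, at 170.3 CPM (162 to 179) at 300 mM and 240.0 CPM (230.4 to 249.9) at 250 mM (log2 -0.50, -0.59 to -0.40), both lower at 300 mM without passing 1.5-fold. At 200 mM Nanog had 124 CPM and Pou5f1 185 CPM, so for both the 250 mM library was the highest of the sorbitol doses. Sall4, a zinc finger factor that works with Oct4, was called: it had 317 CPM (305 to 329) at 300 mM and 208 CPM (199 to 217) at 250 mM (log2 0.61, 0.53 to 0.69), with 81.8 CPM in NS and 197 CPM at 200 mM. Dnmt3l, the cofactor of de novo DNA methylation, had 328 CPM at 300 mM and 231 CPM at 250 mM (log2 0.51, 0.43 to 0.59), and Zfp281 42.8 CPM at 300 mM and 29.3 CPM at 250 mM (log2 0.55, 0.32 to 0.78). In counts, 1 of 13 measured core pluripotency genes was higher and 0 lower (median 0.23). That median ranged from 0.03 to 0.23 over the 10 other settings, so the main value is at the top of its range.

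The naive list held 1 higher and 0 lower of 23 (median 0.05, that of all genes). Its higher member, Spp1, the secreted phosphoprotein osteopontin, had 295 CPM at 300 mM and 196 CPM at 250 mM (log2 0.59, 0.51 to 0.68). Klf2, a naive factor, had 209 CPM at 300 mM and 158 CPM at 250 mM (log2 0.40, 0.30 to 0.50), and Nr0b1, the repressor Dax1, 42.5 CPM at 300 mM and 32.8 CPM at 250 mM (log2 0.37, 0.15 to 0.60). With median-of-ratios scaling Spp1 and Sall4 no longer reached 1.5-fold (log2 0.55 and 0.57). LIF and STAT3 genes had 0 of 11 called (median 0.08); Stat3 itself had 68.4 CPM at 300 mM and 53.5 CPM at 250 mM (log2 0.35, 0.18 to 0.53). Formative and primed genes had 0 of 8 called (median 0.22, and 0.08 to 0.29 over the 10 other settings). They were led by Dnmt3b, a de novo DNA methyltransferase, with 124 CPM at 300 mM and 91.02 CPM at 250 mM (log2 0.44, 0.31 to 0.57), and by Otx2, a formative transcription factor, with 62.2 CPM at 300 mM and 49.9 CPM at 250 mM (log2 0.32, 0.14 to 0.50).

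Receptors and effectors of several signalling pathways had list medians above that of all genes, with few members called. In the Wnt pathway list 9 of 10 measured members had a ratio above 0, against 58.9% of all genes, and 1 passed 1.5-fold. The median was 0.31, the highest of the lists with at least 5 measured members, but 0.16 with barcodes thinned to 500 UMIs and 0.06, near that of all genes, with no minimum level. That member, Fzd5, a Wnt receptor, had 50.9 CPM (46.2 to 55.99) at 300 mM and 27.5 CPM (24.3 to 31.04) at 250 mM (log2 0.89, 0.66 to 1.11), with 6.77 CPM in NS and 24.4 CPM at 200 mM. Tcf7l2, a transcription factor of the pathway, had 79.1 CPM at 300 mM and 53.8 CPM at 250 mM (log2 0.56, 0.39 to 0.73), and Ctnnb1, beta-catenin, 261 CPM at 300 mM and 195 CPM at 250 mM (log2 0.43, 0.34 to 0.51). All 8 measured BMP and Id genes were above 0, against 58.9% of all genes (median 0.27). The lowest, 0.01, is within the shift of another scaling. The counting intervals of only 2 of the 8 lay wholly above 0, against 26.2% of all genes. Smad1, which carries the BMP signal to the nucleus, was the 1 called (16.4 CPM at 300 mM and 8.50 CPM at 250 mM, log2 0.95, 0.54 to 1.36). Bmp4, a ligand, had 66.6 CPM at 300 mM and 44.8 CPM at 250 mM (log2 0.57, 0.39 to 0.75). Nodal pathway genes had 0 of 9 called (median 0.16), with the ligand Nodal at 28.7 CPM at 300 mM and 19.4 CPM at 250 mM (log2 0.57, 0.29 to 0.85) and its inhibitor Lefty2 at 77.1 CPM at 300 mM and 53.96 CPM at 250 mM (log2 0.51, 0.35 to 0.68).

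Among immediate early and ERK feedback genes 2 of 11 were higher and 0 lower, against 2.46% and 1.09% of all genes (median 0.22). Dusp1, a phosphatase that shuts off MAP kinases, had 56.6 CPM at 300 mM and 34.2 CPM at 250 mM (log2 0.73, 0.52 to 0.93), and Spred1, an inhibitor of Ras signalling, 19.3 CPM at 300 mM and 12.4 CPM at 250 mM (log2 0.64, 0.29 to 0.99). Neither call held in all 7 other scalings and choices of barcodes: Dusp1 passed 1.5-fold in 6 of them and Spred1 in 5. Dusp1 also had 53.6 CPM at 200 mM, which puts it near its 300 mM level there.

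Of the p53 target list, 2 of 17 measured members were higher and 0 lower, against 2.46% and 1.09% of all genes, and 13 (all genes, 58.9%) had ratios above 0 (median 0.25). Pmaip1, which encodes the pro-apoptotic protein Noxa, was at 28.1 CPM (24.6 to 31.9) at 300 mM and 15.4 CPM (13 to 18.02) at 250 mM (log2 0.87, 0.57 to 1.18). Plk2, a stress-responsive polo-like kinase, was at 38.5 CPM at 300 mM and 21.4 CPM at 250 mM (log2 0.85, 0.59 to 1.105). At 200 mM they had 23.5 and 25.5 CPM, between their 250 and 300 mM levels.

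ATF4 targets, the amino acid branch of the stress response, held 3 higher and 0 lower of 23, against 2.46% and 1.09% of all genes. With a median of 0.05, however, the list as a whole matched all genes. Cth, which makes cysteine from cystathionine, had 135 CPM at 300 mM and 85.3 CPM at 250 mM (log2 0.66, 0.53 to 0.79). Psat1, of serine synthesis, had 744 CPM at 300 mM and 491 CPM at 250 mM (log2 0.60, 0.55 to 0.66), and Cebpb, a transcription factor, 34.4 CPM at 300 mM and 21.9 CPM at 250 mM (log2 0.65, 0.39 to 0.91). The listed tRNA synthetases, also known as ATF4 targets, lay on the other side: 0 of the 12 on the list were called, 9 were below 0 and the median was -0.11. Of these, Vars, the valyl enzyme, was at 70.5 CPM at 300 mM and 105 CPM at 250 mM (log2 -0.57, -0.72 to -0.42). Rars, called lower above (log2 -0.71), is not on that list. Heat shock genes had 0 of 15 called, 10 below 0 and a median of -0.13, with the chaperone Hspa8 at 1366 CPM at 300 mM and 1771 CPM at 250 mM (log2 -0.37, -0.41 to -0.34). Endoplasmic reticulum chaperones had 0 of 17 called (median 0.11).

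The proteasome and ribosomal protein lists had more members below 0 than the 41.1% of all genes. Of 16 proteasome subunits 14 had ratios below 0, the median was -0.26, and 1 was called: Psmb5, the catalytic subunit with chymotrypsin-like activity, at 156 CPM (148 to 165) at 300 mM and 238 CPM (228 to 247) at 250 mM (log2 -0.60, -0.70 to -0.50). At 200 mM Psmb5 had 147 CPM, near the 300 mM level. Ribosomal protein genes had 67 of 82 below 0 and a median of -0.16, with 1 lower at 1.5-fold, Rps18, at 1404 CPM at 300 mM and 2204 CPM at 250 mM (log2 -0.65, -0.68 to -0.62). Rps27 went the other way, with 3573 CPM at 300 mM and 2417 CPM at 250 mM (log2 0.56, 0.54 to 0.59). The log2 ratio of the summed ribosomal protein genes was -0.08. Translation factors had 0 of 17 called (median -0.10), with Eef1d, of the elongation factor complex, at 148 CPM at 300 mM and 202 CPM at 250 mM (log2 -0.45, -0.55 to -0.34). The medians of these 3 lists stayed below 0 under both other scalings.

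Energy metabolism did not move as a block. In the glycolysis and hypoxia list 16 of 21 had ratios above 0, against 58.9% of all genes (median 0.10). The counting intervals of 13 lay wholly above 0 and those of 4 wholly below, against 26.2% and 15.7% of all genes. At 1.5-fold 1 of the 21 was lower and 0 higher. Gapdh, the glyceraldehyde-3-phosphate dehydrogenase often taken as a reference gene, was at 1443 CPM (1417 to 1469) at 300 mM and 2195 CPM (2166 to 2224) at 250 mM (log2 -0.61, -0.64 to -0.57), and at 3559 CPM in NS and 1642 CPM at 200 mM. Eno1, a later enzyme of the same pathway, was at 791 CPM at 300 mM and 538 CPM at 250 mM (log2 0.56, 0.50 to 0.61), and the glucose transporter Slc2a3 at 2446 CPM at 300 mM and 1770.5 CPM at 250 mM (log2 0.47, 0.44 to 0.50). Members of 1 pathway thus stood on opposite sides, beyond counting error. Both Gapdh and Eno1 have processed copies in the genome, which makes their counts uncertain. Nuclear genes of oxidative phosphorylation had 0 of 21 called (median -0.04). Of 13 mitochondrially encoded genes 1 was lower, mt-Atp8, with 192 CPM at 300 mM and 315 CPM at 250 mM (log2 -0.72, -0.81 to -0.63), and the median was -0.00. Cholesterol and fatty acid synthesis had 0 of 24 called (median 0.09), with Fdps, of the mevalonate pathway, at 67.8 CPM at 300 mM and 98.2 CPM at 250 mM (log2 -0.53, -0.69 to -0.38) and Scd2, a fatty acid desaturase, at 306 CPM at 300 mM and 219 CPM at 250 mM (log2 0.48, 0.40 to 0.57). Lysosome and autophagy genes had 0 of 18 called (median -0.09).

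Of the cell cycle genes few were called. Of 27 S phase genes 1 was lower and 0 higher (median -0.00): Ccne2, cyclin E2, at 22.3 CPM at 300 mM and 36.7 CPM at 250 mM (log2 -0.72, -0.98 to -0.46), with 60.1 CPM in NS and 21.7 CPM at 200 mM. Mcm7, a subunit of the replicative helicase, had 205 CPM at 300 mM and 277 CPM at 250 mM (log2 -0.44, -0.53 to -0.35). Of 26 G2 and M phase genes 0 were called and 17 were below 0, against 41.1% of all genes (median -0.08). The counting intervals of 11 lay wholly below 0 and those of 3 wholly above, against 15.7% and 26.2% of all genes. The proliferation marker Mki67 had 47.03 CPM at 300 mM and 68.9 CPM at 250 mM (log2 -0.55, -0.73 to -0.37), and Top2a, the topoisomerase of chromosome segregation, 537 CPM at 300 mM and 697 CPM at 250 mM (log2 -0.38, -0.43 to -0.32). Ccna2, cyclin A2, stood higher at 300 mM, with 84.2 CPM at 300 mM and 59.6 CPM at 250 mM (log2 0.50, 0.34 to 0.66). G1 cyclins and Rb family genes had 0 of 7 called (median -0.14, and 0.01 at a minimum mean of 50 CPM).

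The chromatin and splicing lists had more members above 0 than the 58.9% of all genes. Of 16 chromatin regulators 15 had ratios above 0 (median 0.25) and 1 was higher at 1.5-fold: Hdac2, a histone deacetylase, at 119.9 CPM (113 to 128) at 300 mM and 75.9 CPM (70.5 to 81.5) at 250 mM (log2 0.66, 0.52 to 0.80). Genes of the Polycomb repressive complex that methylates histone H3 followed: Eed had 224 CPM at 300 mM and 153 CPM at 250 mM (log2 0.55, 0.45 to 0.65), Jarid2 had 679 CPM at 300 mM and 486 CPM at 250 mM (log2 0.48, 0.43 to 0.54) and Suz12 had 535 CPM at 300 mM and 383 CPM at 250 mM (log2 0.48, 0.42 to 0.55). DNA methylation enzymes had 0 of 9 called (median 0.22), with Dnmt1, the maintenance methyltransferase, at 192 CPM at 300 mM and 129 CPM at 250 mM (log2 0.57, 0.47 to 0.68), just inside 1.5-fold. Of 21 splicing and hnRNP genes 18 were above 0 (median 0.17) and 1 was called, Srsf6, an SR splicing factor, at 263 CPM at 300 mM and 169.9 CPM at 250 mM (log2 0.63, 0.54 to 0.72). Srsf2 followed with 329 CPM at 300 mM and 227 CPM at 250 mM (log2 0.54, 0.45 to 0.62). Of 12 snoRNA host genes 1 was higher, Snhg3, at 38.7 CPM at 300 mM and 20.3 CPM at 250 mM (log2 0.93, 0.67 to 1.196; median of the list 0.08), with 44.04 CPM at 200 mM. Long non-coding RNAs had 0 of 9 called (median 0.13), with the nuclear RNA Malat1 at 16622 CPM at 300 mM and 22155 CPM at 250 mM (log2 -0.41, -0.42 to -0.40). Of 15 imprinted genes 1 was higher and 2 lower, against 2.46% and 1.09% of all genes (median 0.13). The higher one was Impact, an inhibitor of the kinase GCN2, at 177 CPM at 300 mM and 115 CPM at 250 mM (log2 0.62, 0.51 to 0.73). The lower ones were Snrpn and Phlda2. The medians of the long non-coding and imprinted lists were both -0.02 at a minimum mean of 50 CPM.

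In the cytoskeleton list 1 of 18 actin genes was higher and 0 lower (median 0.12), Pfn1, profilin 1, which binds actin monomers, at 1277 CPM (1253 to 1302) at 300 mM and 814 CPM (796 to 832) at 250 mM (log2 0.65, 0.61 to 0.69), with 383 CPM in NS and 844 CPM at 200 mM. Of the calcium-binding annexins and S100 proteins 3 of 10 were higher and 0 lower (median 0.20), against 2.46% and 1.09% of all genes. All 3 were annexins: Anxa4 at 35.7 CPM at 300 mM and 20.4 CPM at 250 mM (log2 0.81, 0.54 to 1.08), Anxa7 at 92.1 CPM at 300 mM and 57.2 CPM at 250 mM (log2 0.69, 0.53 to 0.85) and Anxa5 at 29.1 CPM at 300 mM and 19.04 CPM at 250 mM (log2 0.61, 0.33 to 0.89). Anxa5 fell short of 1.5-fold with median-of-ratios scaling (log2 0.57) and in the UMI range both libraries share (0.48). At 200 mM Anxa4 had 36.4 CPM, close to 300 mM.

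Few lineage genes were called. Primitive endoderm genes had 0 of 7 called (median 0.25), with Gata6, its transcription factor, at 11.8 CPM at 300 mM and 8.29 CPM at 250 mM (log2 0.51, 0.07 to 0.95). Of the 7 counting intervals 5 lay wholly above 0 and 0 wholly below, against 26.2% and 15.7% of all genes. Trophoblast genes had 0 of 8 called (median -0.03), epithelial genes 0 of 9 (median -0.11), germline genes 0 of 9 (median 0.01) and interferon genes 1 lower of 12 (median -0.14), Bst2, at 8.20 CPM at 300 mM and 12.6 CPM at 250 mM (log2 -0.62, -1.07 to -0.18). Few members were measured in the mesenchymal (3), streak and mesoderm (2), neuroectoderm (1, Tubb3) and definitive endoderm (1, Trh) lists. Fn1, fibronectin, of the mesenchymal list, had 391 CPM at 300 mM and 284 CPM at 250 mM (log2 0.46, 0.39 to 0.54). The Zscan4-type cleavage-stage list, the fibroblast list and the blood list had 0 members measured.

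**Figure D4:**
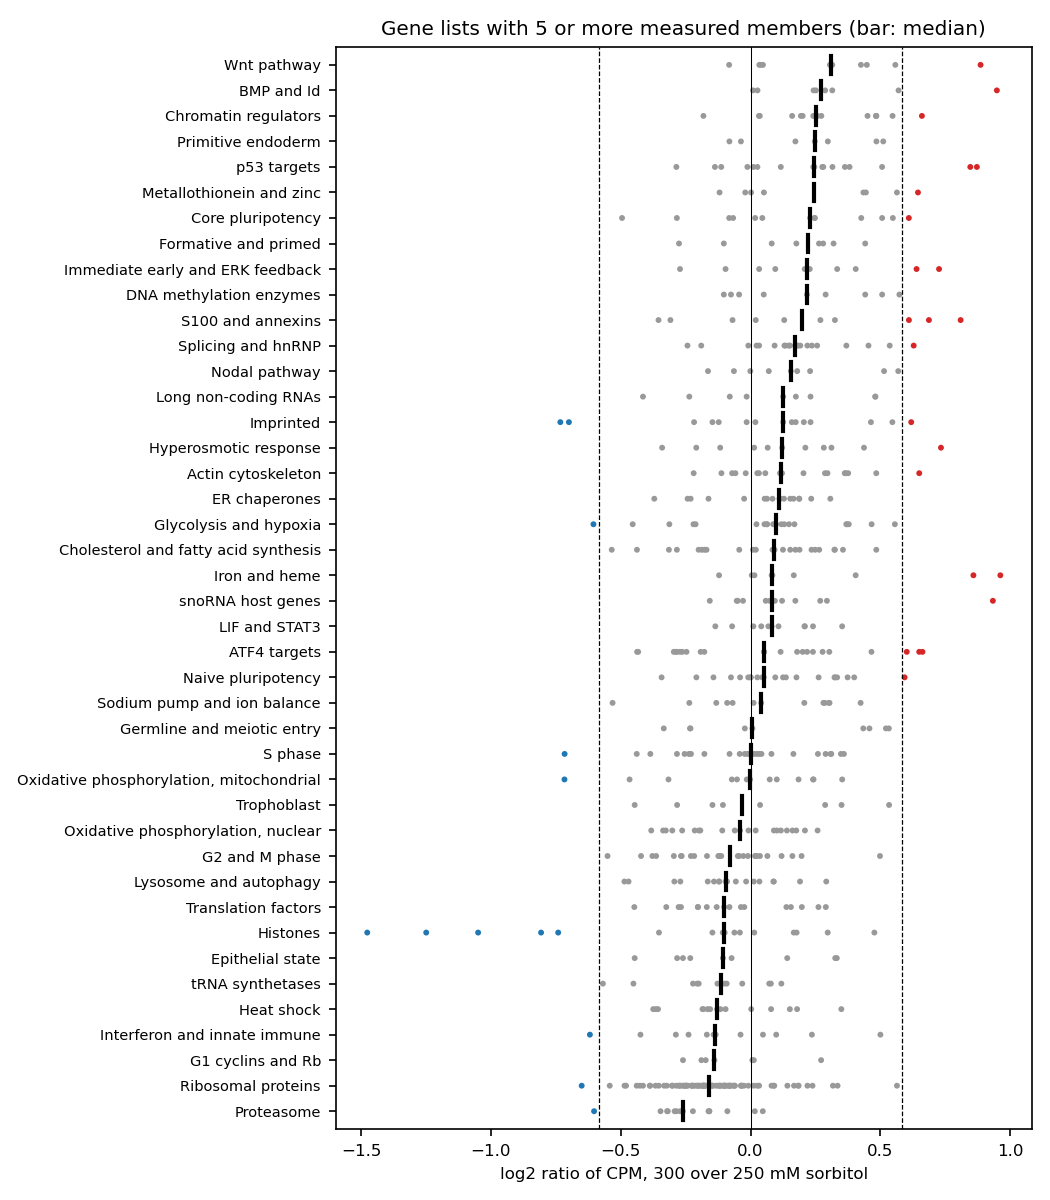
Log2 ratios of CPM, 300 over 250 mM (horizontal axis), for measured members of each gene list with 5 or more of them (rows, ordered by median); points are genes, black bars list medians and dashed lines 1.5-fold, with called genes in red (higher) and blue (lower). The Wnt list has the highest median (0.31), the proteasome list the lowest (-0.26), and the histone list the lowest single genes.

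Outside the lists, Gm42418 and AY036118, which are known to take up reads of ribosomal RNA, and Lars2 stood low at 300 mM; they were singled out after their values were seen. Gm42418 had 783 CPM at 300 mM and 1648 CPM at 250 mM (log2 -1.07, -1.12 to -1.03), AY036118 had 11.9 CPM at 300 mM and 33.4 CPM at 250 mM (log2 -1.48, -1.82 to -1.15), and Lars2, the mitochondrial leucyl-tRNA synthetase, had 22.9 CPM at 300 mM and 44.4 CPM at 250 mM (log2 -0.96, -1.21 to -0.71). In NS and at 200 mM Gm42418 stood at 1955 and 1029 CPM. Gm42418 was thus lowest at 300 mM among the libraries with LIF.

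The genes higher and lower at 300 mM also differed in transcript length and base composition. The longest annotated transcript, protein-coding where a gene has one, had a median of 3437 bases in the 209 higher genes and 1869 bases in the 93 lower ones, against 3158 bases over all genes. Median GC content was 48.8% in the higher genes and 52.9% in the lower ones, against 49.7%. The ratio itself was lower among short transcripts, without a steady trend among longer ones: genes with transcripts under 1000 bases had a median log2 ratio of -0.08 (n = 526, 9 higher and 22 lower), and those of 1000 to 2000 bases -0.03. The medians were 0.08 at 2000 to 3000 bases, 0.07 at 3000 to 4000, 0.11 at 4000 to 6000 (n = 1757, 45 higher and 6 lower) and 0.08 over 6000 bases (n = 1283, 29 higher and 5 lower). Leaving out ribosomal protein and mitochondrially encoded genes, an alternative added after seeing the data, gave -0.07 for the shortest class (n = 471). The lists named above differ in length too: the median was 926 bases for measured ribosomal protein genes, 1490.5 for proteasome genes, 2847 for splicing genes, 3775 for tRNA synthetases, 4396 for Wnt genes and 4284 for chromatin regulators. What part length has in the list medians was not tested. Over the autosomes and X, chromosome medians ran from -0.01 on chromosomes 7, 15 and 17 to 0.10 on chromosome 18; Y had 1 measured gene.

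**Figure D5:**
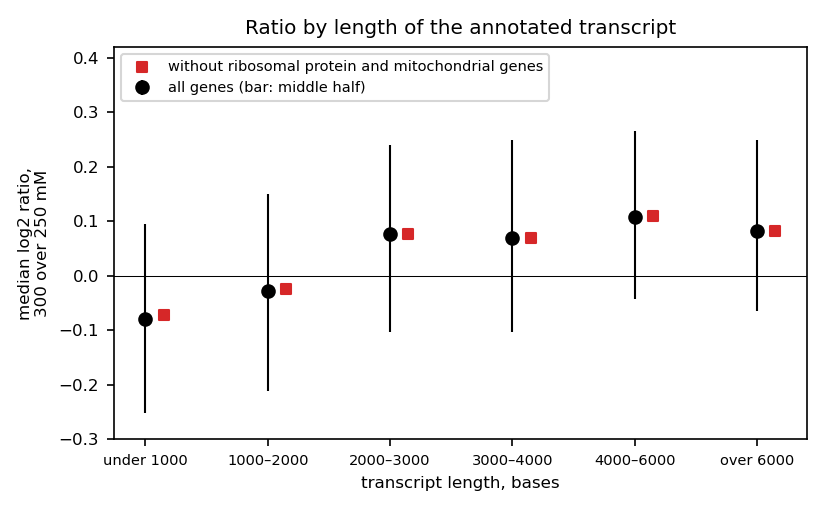
Median log2 ratio of CPM, 300 over 250 mM (vertical axis), by length of the longest annotated transcript in bases (horizontal axis, 6 classes); black points with bars are all genes with their interquartile range, red squares leave out ribosomal protein and mitochondrially encoded genes. The median is -0.08 under 1000 bases, highest at 4000 to 6000 bases with 0.11, and 0.08 over 6000 bases.

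The UMIs of most named genes were spread over barcodes about as sampling from 1 profile would spread them. After each barcode was thinned to 500 UMIs, which kept all 9849 barcodes at 300 mM and all 10000 at 250 mM, the variance of UMIs over barcodes divided by their mean was between 0.9 and 1.1 in both libraries for 179 of 188 named genes. Its median was 1.004 at 300 mM and 1.008 at 250 mM, where such sampling gives a value close to 1. Malat1 stood out with 2.71 at 300 mM and 3.18 at 250 mM, and Phlda2, an imprinted gene of placental growth, with 1.102 at 300 mM and 1.48 at 250 mM. Krt18, an epithelial keratin, had 1.11 at 300 mM and 1.30 at 250 mM. Col4a1, a basement membrane collagen, had 1.19 at 300 mM and 1.18 at 250 mM, and Mt1 had 1.11 at 300 mM and 1.17 at 250 mM. Some transcripts of Col4a1 and Mt1 were thus concentrated in fewer barcodes in both libraries. For Krt18 and Phlda2 the values rest on few barcodes in both libraries. Only 80 and 36 held any UMI of them at 300 mM, and 104 and 44 at 250 mM. At 250 mM only 3 barcodes held 3 or more UMIs of each gene. At 500 UMIs a barcode holds well under 1 UMI of most of these genes, which limits what this measure can show.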

How the data were processed

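The deposited files hold raw UMI counts for each gene in each barcode, written by Cell Ranger 6.0.1, per the file headers. The submitters' processing notes list that version with R 4.1.2, Seurat 4.1.1 and the build mm10, and give no roles. The labels' extraction protocol names Trizol and a Lexogen 3' kit, but the files are matrices of droplet barcodes; which steps were used was not settled. Aligner settings, annotation, use of strand and barcode selection were not given in the sources used here, so overlapping, antisense and near-identical genes are uncertain.

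Each matrix held 10000 barcodes and 32285 genes. Barcodes with at least 500 genes were kept, UMIs were summed per gene and scaled to CPM over all genes. Ratios are log2 ratios with exact conditional binomial 95% intervals, and levels have exact Poisson intervals; both cover counting error only. Counts below 3 UMIs were raised to a floor of 3 UMIs, that is 0.362 CPM at 300 mM and 0.307 CPM at 250 mM. Genes with a mean of at least 10 CPM counted as measured and were called at 1.5-fold. Doublets were not called, and dropping the 5% of barcodes richest in UMIs served as an alternative. No barcode passed 20% mitochondrial UMIs.

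Named genes are the 12 highest and 12 lowest ratios at a mean of at least 50 CPM (without mitochondrially encoded, ribosomal protein and unnamed genes), Zfp42, Nanog, Pou5f1, Sox2, Mt1, Mt2, Sgk1, Slc5a3, Slc6a6 and Slc6a12, and up to 4 members per list with the largest absolute ratio; further list members were named after their values were seen, and 1 gene that the rule names is not reported here. The comparison, its 49 gene lists and the alternatives were chosen with earlier results of these data known. Of 788 listed symbols 786 were found and 651 measured. Transcript lengths and 1-based coordinates are those of GENCODE M21 on GRCm38, that is mm10. The ratio script was tested on simulated data. Python 3.11.15, numpy 2.4.6, scipy 1.17.1, pandas 2.3.3 and matplotlib 3.10.9 were used.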

Additional observations from a re-analysis of the deposited data

How the results depend on the processing

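The counts of 209 higher and 93 lower genes, and of 37 called list members, stayed within 1.5 times with median-of-ratios scaling, a total without mitochondrially encoded and ribosomal protein genes, all deposited barcodes, no barcodes of the highest 5% of UMIs, no barcodes over 20% mitochondrial UMIs, the UMI range both libraries share (827 to 2134, which kept 3893 barcodes at 300 mM and 9995 at 250 mM) and a call that also needs the counting interval to leave out 0. They moved with the threshold on level: 371 higher and 231 lower genes at 5 CPM in either library; 58, 20 and 18 list members at a minimum mean of 50 CPM; 1434, 1402 and 71 list members with no minimum. Thinned to 500 UMIs per barcode, 159 genes were lower and 291 higher, and at 2-fold 4 were higher, 13 lower and 3 list members called. Fewer UMIs and lower levels by construction widen the counting error of each ratio. Leaving out barcodes over 20% mitochondrial UMIs removed none, so that setting repeats the main values, also in the counts that follow. The call that also needs the counting interval gave the same 209 and 93 genes. No named gene called at 1.5-fold changed sign; of 1309 values of named genes under these settings 1289 lay within the counting interval of the reported ratio. Some list medians did change sign. Close to 0 these were S phase (-0.00; 5 of 10 settings), germline (0.01; 4 of 10), trophoblast (-0.03; 3 of 10), and ion pumps and mitochondrially encoded genes (1 of 10 each). Farther from 0, the medians of the G1 list (-0.14), long non-coding RNAs and imprinted genes (0.13 each) turned to 0.01, -0.02 and -0.02 at a minimum mean of 50 CPM, the G1 list also with no minimum. In lists with 1 or 2 measured members, neuroectoderm turned to -0.08 at 5 CPM in either library (0.71 at 10 CPM) and streak and mesoderm to -0.18 with no minimum (0.36), and definitive endoderm changed sign in 3 of 9. The Wnt median ranged from 0.06 to 0.37. No paired analysis was possible because each condition is 1 library with no replicate number, and for the same reason no library could be left out. Counting intervals set the limit for genes near 10 CPM, and the spread between cultures is not measured here.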
